A study of Mus musculus with 37 samples.

Results

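Calmodulin-dependent kinases and neurogranin were followed across the cortex of 4 mouse genotypes. The 10 members were fixed by name, as Camk2a, Camk2b, Camk2d, Camk2g, Camk4, Camk1g, Camkk1, Camkk2, Camkv and Nrgn, and every array probe set annotated to one of them alone was used. This gave 28 probe sets of 45037 and 9 genes of 18193. Camkk1 is not analysed here, because no probe set carried its symbol in the platform annotation. All mice were 9 wk old, of both sexes and of the strain CBA X C57Bl/6. WT mice (n = 9) carried neither mutation, R6/2 mice (n = 9) carried a transgene for a mutant exon 1 fragment of human huntingtin, Hdac4HET mice (n = 9) had lost 1 of their Hdac4 alleles, and Dble::R6/2 mice (n = 10) combined transgene and null allele. The null allele was made on another strain background, so that DNA of that strain may flank it in both genotypes that carry it. RNA from each cortex was hybridised to 1 Affymetrix mouse expression array, and each value is a log2 expression level as deposited. In bulk tissue, fewer cells of a type and less RNA per cell cannot be told apart.

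Calcium that enters a neuron through NMDA receptors or calcium channels binds calmodulin, and the loaded calmodulin switches on this family of kinases. CaMKII, an assembly of subunits encoded by Camk2a, Camk2b, Camk2d and Camk2g, is a principal protein of the postsynaptic density and is needed for long-term potentiation. CaMKK2 phosphorylates CaMKI, CaMKIV and the energy sensor AMPK, and CaMKIV in turn phosphorylates the transcription factor CREB in the nucleus. Neurogranin, the product of Nrgn, holds calcium-free calmodulin at the postsynapse, and Camkv encodes a kinase-like protein without kinase activity. CaMKII also phosphorylates HDAC4 and so keeps it out of the nucleus.

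The promoters of 4 members that fell with the transgene are set beside that of Camk2d, whose brightest probe set was not counted as changed, since these genes are read as a group below. The RefSeq promoter table, of build GRCm38.p6, held 7 of the 10 members. The 250 bases before the start of transcription are printed 5′ to 3′ on the strand of the gene, and capitals mark a GC box, GGGCGG read on either strand.
Camkk2 (chr5:122779411-122779660, minus strand): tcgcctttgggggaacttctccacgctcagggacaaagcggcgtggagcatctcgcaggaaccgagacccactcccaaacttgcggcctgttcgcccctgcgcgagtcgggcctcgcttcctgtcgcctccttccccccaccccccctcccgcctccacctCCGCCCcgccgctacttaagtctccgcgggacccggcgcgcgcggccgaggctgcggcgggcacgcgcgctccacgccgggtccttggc
Camk1g (chr1:193370283-193370532, minus strand): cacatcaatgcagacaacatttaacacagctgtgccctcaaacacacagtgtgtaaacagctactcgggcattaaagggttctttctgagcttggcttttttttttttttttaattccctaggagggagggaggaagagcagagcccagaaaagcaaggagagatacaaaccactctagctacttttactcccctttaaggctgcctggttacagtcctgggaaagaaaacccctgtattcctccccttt
Nrgn (chr9:37552746-37552995, minus strand): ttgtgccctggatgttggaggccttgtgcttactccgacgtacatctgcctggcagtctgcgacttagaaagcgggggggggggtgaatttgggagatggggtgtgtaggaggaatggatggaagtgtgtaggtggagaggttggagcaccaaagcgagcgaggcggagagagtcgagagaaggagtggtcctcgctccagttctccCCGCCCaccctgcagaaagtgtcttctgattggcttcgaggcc
Camkv (chr9:107935670-107935919, plus strand): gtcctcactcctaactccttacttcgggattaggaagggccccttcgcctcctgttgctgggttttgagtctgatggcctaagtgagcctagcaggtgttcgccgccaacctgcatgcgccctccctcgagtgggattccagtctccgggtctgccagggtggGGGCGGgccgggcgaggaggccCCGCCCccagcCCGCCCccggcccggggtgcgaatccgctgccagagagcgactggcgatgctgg
Camk2d (chr3:126596701-126596950, plus strand): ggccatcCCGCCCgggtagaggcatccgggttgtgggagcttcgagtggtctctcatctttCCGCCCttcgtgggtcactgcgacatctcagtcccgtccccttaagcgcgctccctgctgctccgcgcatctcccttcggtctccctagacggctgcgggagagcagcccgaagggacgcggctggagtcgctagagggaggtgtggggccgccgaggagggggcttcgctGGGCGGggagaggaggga
GC made up 72.4% of the Camkk2 window, 44.8% of that of Camk1g, 58.4% of that of Nrgn, 67.6% of that of Camkv and 68.4% of that of Camk2d, against a median of 52.4% over all promoters in the table. The GC box was present once in Camkk2 and Nrgn, at 3 places in Camkv and in Camk2d and at none in Camk1g, and 32.7% of all promoters held it. Neither TGACG, the half-site of the cyclic AMP response element that CREB binds, held by 17.8% of all promoters, nor TATAAA, held by 12.4%, was found in these windows on either strand. These matches are a description of the letters and were not tested against the expression values.

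The labels were checked before the members were read. Hdac4 lay between 8.28 and 8.64 on the log2 scale in WT and 8.31 and 8.55 in R6/2 cortex, and between 7.8 and 8.02 in Hdac4HET and 7.7 and 7.98 in Dble::R6/2 cortex. Array medians lay between 6.16 and 6.21, and arrays of the same genotype correlated at 0.993 to 0.998. Markers of the olfactory bulb (10 genes) had a mean log2 level of 5.45 to 5.78 on WT and 5.4 to 5.64 on R6/2 arrays. This mean reached 8.18 in Hdac4HET and 6.45 in Dble::R6/2 cortex, and 7 Hdac4HET arrays and 1 Dble::R6/2 array lay above every WT array. Sex-linked genes went against the label on 6 arrays. Where leaving out the arrays with either feature changed the call of a member set, the value without them stands beside it. Counts of groups without overlap and correlations were not recomputed without them. Excitatory cortical neuron markers (4 of 5 measured) had mean levels of 9.76 to 10.03 in WT cortex, and general neuron markers (5 of 5) of 12.38 to 12.51, so the labelled tissue carried its defining transcripts.

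The first comparison asked how the R6/2 transgene alone moved the members. Probe sets for CaMKK2, the alpha subunit of CaMKII, CaMKI gamma, the pseudokinase Camkv and neurogranin fell, and none of the members rose. To be counted as changed, a probe set needed both a limma adjusted p under 0.05 and more than 1.3-fold between the means, which is 0.38 on the log2 scale. By this rule 15 of 28 member sets were lower in R6/2 than in WT cortex, where 3.03% of all probe sets were lower. Without the fold threshold 17 member sets were lower, against 17.6% of all probe sets, and 1 was higher. In either direction these were 18 of 28 member sets, beside 17496 of all 45037 probe sets. The median change over the member sets was -0.4 on the log2 scale, beside -0.02 over all probe sets. On 14 of 28 member sets every R6/2 array lay below every WT array, which held for 2.73% of all probe sets. With each gene represented by its brightest probe set, 5 of 9 members were lower, against 3.3% of all genes.

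**Figure D1:**
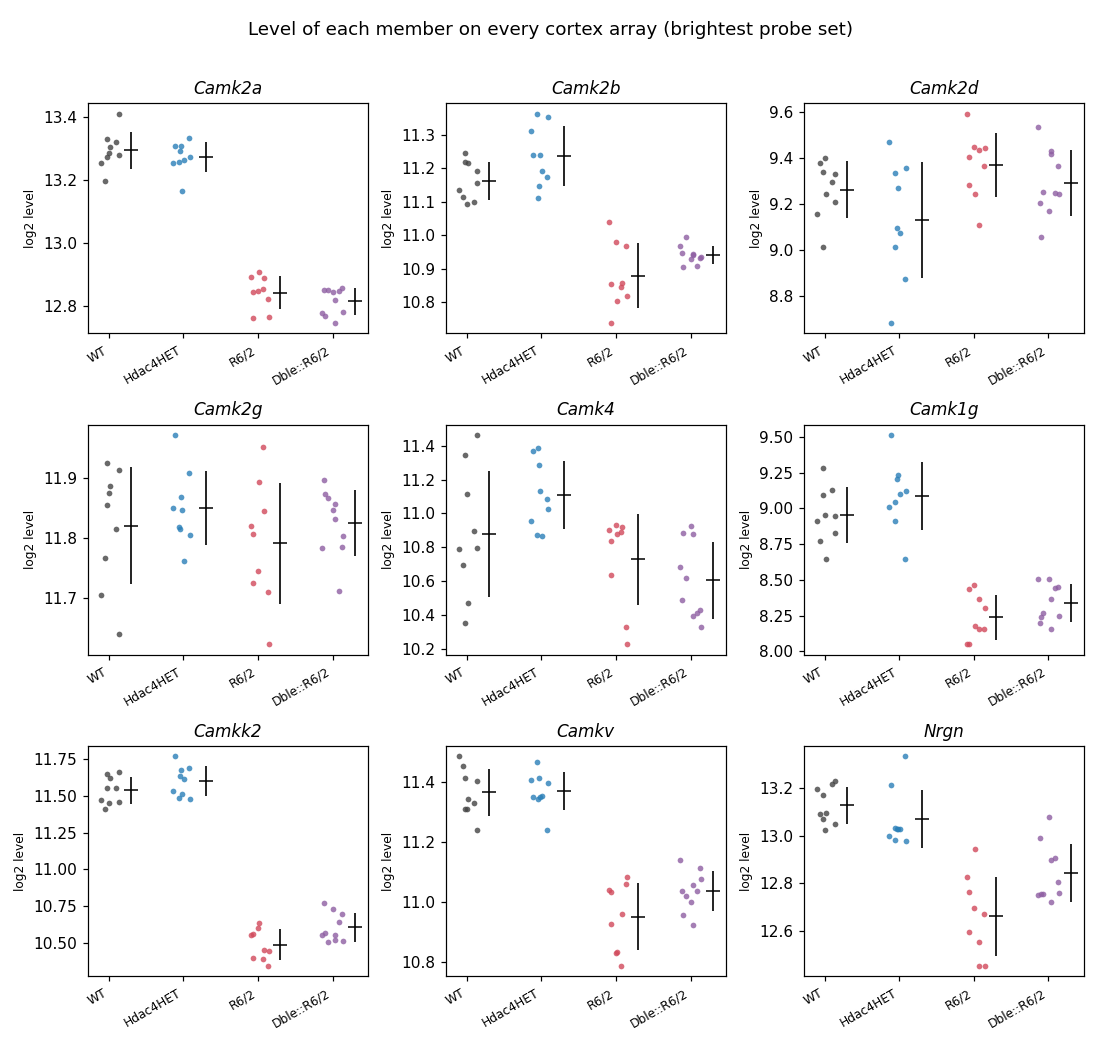
Log2 expression level of each measured member (brightest probe set, y axis) on every cortex array of the 4 genotypes (x axis), with 1 point per mouse and the mean ± SD beside the points. The y axes differ between panels. The points of both transgenic genotypes lie below those of both other genotypes for Camk2a, Camk2b, Camk1g, Camkk2 and Camkv, and overlap with them for Camk2d, Camk2g and Camk4.

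Camkk2, the only upstream kinase measured, fell furthest of the 9 members by brightest set. Its brightest probe set lay between 11.41 and 11.66 in WT cortex on the log2 scale, with a median of 11.55, and between 10.35 and 10.63 in R6/2 cortex, with a median of 10.45. No array of either group came near the other group. The log2 change was -1.05 ± 0.05 (SE, 9 against 9 mice, limma adjusted p = 5.68e-20), and the level fell by 51.7%. Ordered by change, Camkk2 ranked 34 from the lowest of 18193 genes. Its other 3 probe sets changed by -0.9, -0.93 and -0.59, and on each of them every R6/2 array was below every WT array. The dimmest, with a mean level of 4.76, moved least.

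Camk1g, which encodes the gamma form of CaMKI, fell as well. Its levels were 8.65 to 9.28 in WT cortex (median 8.95) and 8.05 to 8.46 in R6/2 cortex (median 8.18), so the groups did not overlap. The log2 change was -0.71 ± 0.08 (SE, limma adjusted p = 4.39e-09), and the level fell by 39%. CaMKI gamma is a membrane-anchored target of the CaMKK enzymes.

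Camk4, which encodes the nuclear kinase CaMKIV, gave different answers on different probe sets. The brightest set spread from 10.35 to 11.46 in WT cortex (median 10.8) and from 10.23 to 10.93 in R6/2 cortex (median 10.88). The groups shared the stretch from 10.35 to 10.93, with the highest levels in WT and the lowest in R6/2 mice, and the log2 change was -0.15 ± 0.12 (SE, 95% interval -0.4 to 0.09, limma adjusted p = 0.334). Set 3 in order of brightness fell by 0.99 on the log2 scale (SE 0.14, limma adjusted p = 4.57e-07), from 7.5 to 8.67 in WT to 6.78 to 7.46 in R6/2 cortex, with no overlap. Set 5 fell by 0.57 (SE 0.09, limma adjusted p = 2.3e-06), and 8 of 9 R6/2 arrays lay below every WT array. Sets 2 and 4 gave -0.18 and -0.12 and were not counted as changed. Where in the transcript each set lies was not analysed here.

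The subunits of CaMKII differed among themselves. Camk2a, the subunit typical of forebrain excitatory neurons, had levels of 13.2 to 13.41 in WT cortex (median 13.29) and of 12.76 to 12.91 in R6/2 cortex (median 12.85) on its brightest set. The groups were apart by more than the range within either. The log2 change was -0.45 ± 0.02 (SE, limma adjusted p = 9.94e-18), and the level fell by 27%. Sets 2 to 5 in order of brightness changed by -0.79, -0.71, -0.88 and -0.9 on the log2 scale and were all counted as lower, with every R6/2 array below every WT array. The dimmest set changed by -0.22 ± 0.06 (SE, limma adjusted p = 0.005), short of the fold threshold.

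Camk2b, the subunit that binds the actin cytoskeleton, had a single probe set. Its levels ran from 11.09 to 11.25 in WT cortex (median 11.16) and from 10.74 to 11.04 in R6/2 cortex (median 10.86). The groups did not overlap, yet the difference of -0.28 ± 0.03 on the log2 scale (SE, limma adjusted p = 9.17e-09) was smaller than 1.3-fold.

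Camk2g, whose product carries calmodulin towards the nucleus, had levels of 11.64 to 11.92 in WT (median 11.85) and of 11.62 to 11.95 in R6/2 cortex (median 11.81). The groups overlapped over nearly their whole range. The log2 difference was -0.03 ± 0.04 (SE, 95% interval -0.1 to 0.05, limma adjusted p = 0.565), and the second set gave -0.02 with an interval of -0.1 to 0.06. Both intervals lie inside the 1.3-fold threshold.

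Camk2d, a CaMKII subunit best known from the heart, had levels of 9.01 to 9.4 in WT cortex (median 9.29) and of 9.11 to 9.59 in R6/2 cortex (median 9.4) on its brightest set. The log2 difference was 0.11 ± 0.08 (SE, 95% interval -0.05 to 0.26, limma adjusted p = 0.281). Set 2, which covered 7.15 to 7.78 in WT and 6.77 to 7.5 in R6/2 cortex, was counted as lower at -0.38 ± 0.13 (SE, limma adjusted p = 0.0164). This value sat on the fold threshold, and the call was lost with array quality weights (-0.37), without the arrays whose sex-linked genes went against the label (-0.36), and without any 1 of WT replicates 2, 3, 4, 5 and 9 or R6/2 replicates 5, 6, 7 and 8 (-0.33 to -0.38). Set 6, at a mean level of 4.17, was the member set that was higher at any size, by 0.32 ± 0.08 (SE, limma adjusted p = 0.000999). The other 4 sets lay between -0.26 and 0.1 and were not counted as changed.

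**Figure D2:**
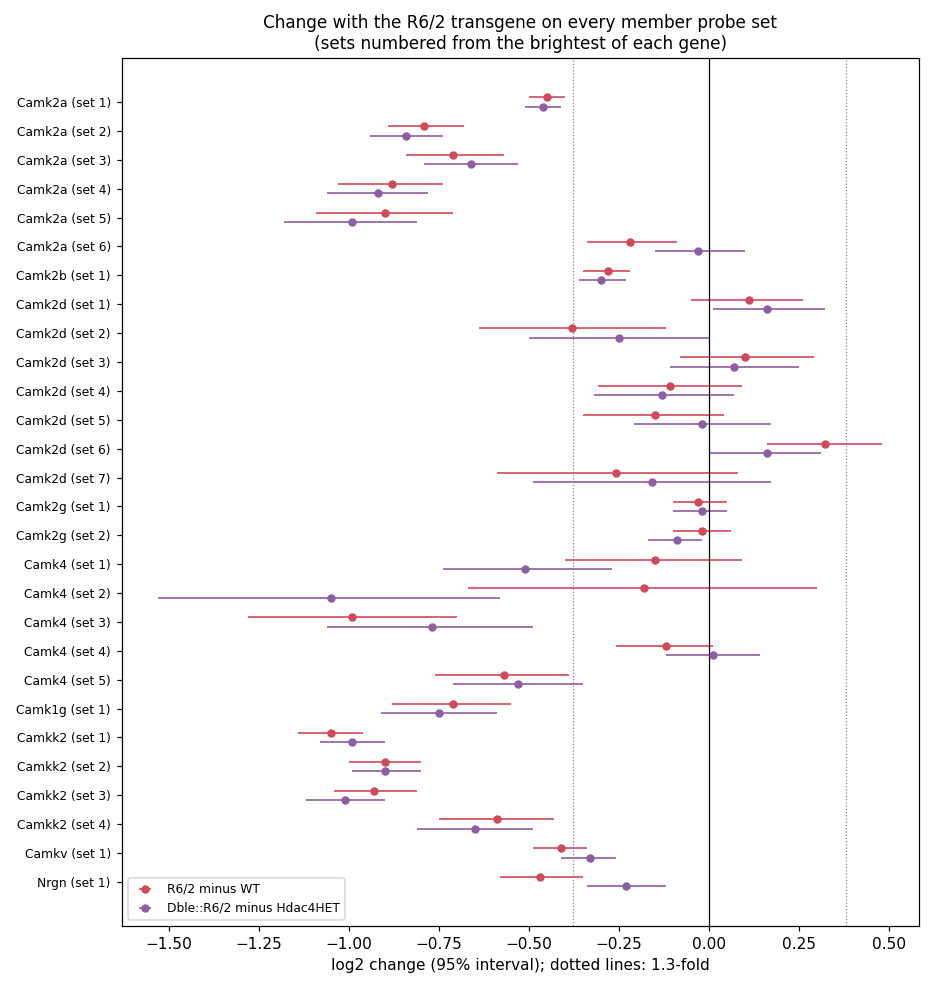
Log2 change with the R6/2 transgene (x axis) for each of the 28 member probe sets (y axis, numbered within a gene from the brightest), as R6/2 minus WT and as Dble::R6/2 minus Hdac4HET. Points are limma estimates, bars are 95% intervals and dotted lines mark 1.3-fold. All 4 Camkk2 sets and 5 of 6 Camk2a sets lie left of the lower dotted line in both comparisons. Both Camk2g sets lie between the dotted lines, with changes between -0.09 and -0.02.

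Probe sets of a single gene were then compared with each other within the same arrays, since the difference between sets cancels what an array adds to both. For each of the 5 genes with several sets, the change of the brightest set was set against that of each other set in 9 R6/2 and 9 WT mice. Of 19 pairs, 11 differed after Benjamini-Hochberg adjustment in a two-sided exact permutation test over 48620 assignments, whose smallest possible p is 4.11e-05. For Camk2a, the brightest set changed less than sets 2, 3, 4 and 5, by 0.33, 0.25, 0.43 and 0.44 on the log2 scale (exact permutation, adjusted p from 0.000391 to 0.00303). It changed more than the dimmest set, by -0.24 (exact permutation, adjusted p = 0.0174). For Camk2d, the brightest set and set 2 differed in their change by 0.49 (exact permutation, adjusted p = 0.000391). For Camk4, the brightest set and set 3 differed by 0.84 (exact permutation, adjusted p = 0.0202), and the brightest set and set 5 by 0.42 (adjusted p = 0.118, same test). The brightest Camkk2 set changed more than the other 3, by -0.15, -0.12 and -0.46 (exact permutation, adjusted p from 0.000782 to 0.00112), with all 4 in the same direction.

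**Figure D3:**
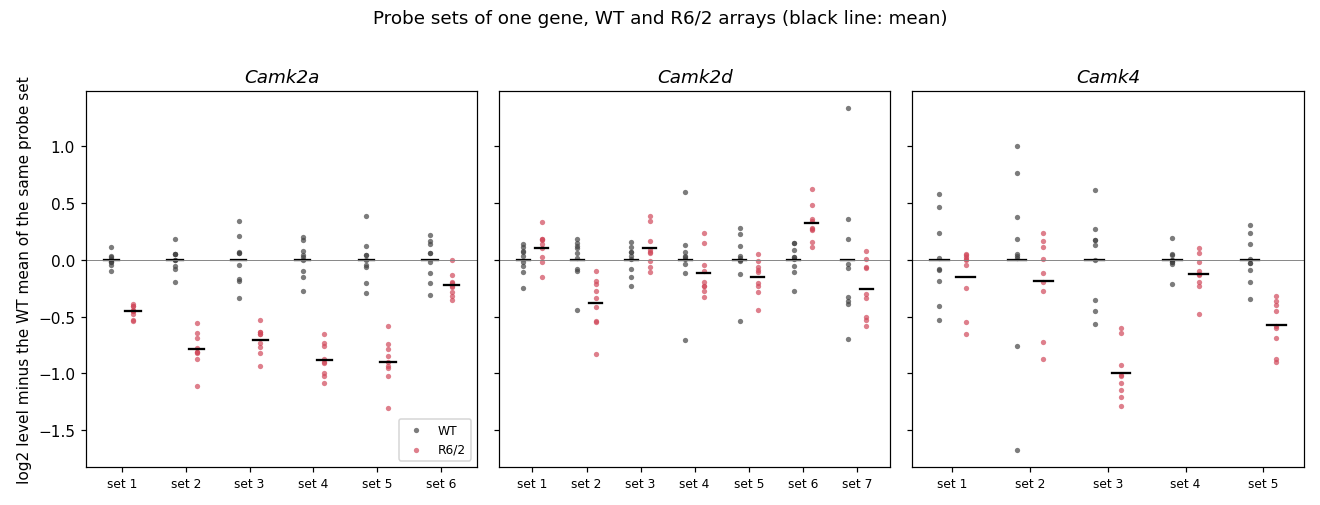
Log2 level minus the WT mean of the same probe set (y axis) for each set of Camk2a, Camk2d and Camk4 (x axis, numbered from the brightest), with 1 point per WT or R6/2 mouse and a black line at the group mean. The R6/2 means lie between -0.9 and -0.22 for Camk2a, between -0.38 and 0.32 for Camk2d and between -0.99 and -0.12 for Camk4.

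Neurogranin and the pseudokinase completed the members. Nrgn levels ran from 13.02 to 13.23 in WT cortex (median 13.09) and from 12.45 to 12.94 in R6/2 cortex (median 12.67). The groups did not overlap, and the R6/2 mice spread more widely than the WT mice (SD 0.17 and 0.08). Nrgn fell by 0.47 on the log2 scale (SE 0.06, limma adjusted p = 1.07e-08), and its level fell by 27.6%. Camkv levels were 11.24 to 11.48 in WT (median 11.34) and 10.79 to 11.09 in R6/2 cortex (median 10.96). They did not overlap, and Camkv fell by 0.41 (SE 0.04, limma adjusted p = 2.04e-11), while its level fell by 24.9%.

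Cell type markers were read beside these falls. The mean log2 level of excitatory cortical neuron markers was 9.55 to 9.95 in R6/2 cortex beside 9.76 to 10.03 in WT cortex. Of these, 0 of 4 were counted as changed and 1 was lower at any size. The mean of the general neuron markers was 12.35 to 12.41 in R6/2 cortex beside 12.38 to 12.51. Of these, 0 of 5 were counted as changed, while 4 were lower and 1 was higher at any size. Interneuron markers had means of 10.41 to 10.66 beside 10.98 to 11.18, with no overlap. Of these, 2 of 6 fell, namely the peptides Sst and Vip, and 5 were lower at any size. Astrocyte markers (5 of 5 measured) had means of 9.87 to 10.04 beside 10.1 to 10.3, with no overlap, and 0 of 5 passed the fold threshold, while 4 were lower at any size. Oligodendrocyte markers (4 of 5 measured) had means of 10.91 to 11.36 beside 11.15 to 11.53. Of these, 1 of 4 fell, Mobp by 0.39 on the log2 scale, and 2 were lower at any size. Microglial markers had means of 9.2 to 9.65 beside 9.34 to 9.7, with 0 of 5 counted as changed and 3 lower at any size. Endothelial markers (4 of 5 measured) had means of 8.35 to 8.66 beside 8.38 to 8.77. Of these, 0 of 4 were counted, with 1 higher and 1 lower at any size. Striatal markers (3 of 5 measured) had means of 7.35 to 8.42 beside 7.75 to 9.02, and 3 of 3 fell. Hippocampal markers had means of 4.66 to 5.31 beside 4.85 to 5.62, and 3 of 5 fell. The part of these cell types and tissues in the member changes was not tested.

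The next comparison asked what the loss of 1 Hdac4 allele did to the members without the transgene. No member set was counted as changed between Hdac4HET and WT cortex by limma, where 0.291% of all probe sets were called in either direction. At an unadjusted p under 0.05 there were 3 of 28 member sets, beside 7463 of all 45037 probe sets. The lowest limma adjusted p of a member set was 0.184, and the methods' t-test with the same adjustment also gave 0. The brightest sets differed by -0.13 to 0.23 on the log2 scale. For Camkk2 the medians were 11.55 in WT and 11.61 in Hdac4HET cortex, and the difference of 0.06 had a 95% interval of -0.03 to 0.15. For Camk2a the medians were 13.29 and 13.27, and the difference of -0.02 had an interval of -0.07 to 0.03. These intervals exclude a 1.3-fold change for both genes, whereas that of Camk4 (0.23, interval -0.01 to 0.47) does not.

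The raised bulb markers moved with some members among the Hdac4HET arrays. Nrgn lay between 12.98 and 13.03 on the 7 arrays with raised markers and between 13.21 and 13.33 on the other 2. Camk2d ran the other way, between 9.01 and 9.47 on the 7 arrays and between 8.68 and 8.87 on the other 2. Camkk2 lay between 11.48 and 11.67 on the 7 arrays and between 11.69 and 11.77 on the other 2, and Camk2g between 11.76 and 11.87 and between 11.91 and 11.97. For none of these 4 genes did the 7 arrays overlap with the 2. Camk2a ran from 13.17 to 13.31 on the 7 arrays and from 13.31 to 13.33 on the other 2. Camk2b, Camk4, Camk1g and Camkv overlapped. The share of all probe sets without overlap in this split was not computed, and the split was not tested. Without the arrays with raised markers, the Hdac4HET minus WT difference was 0.15 ± 0.09 for Nrgn (SE, limma adjusted p = 0.724) and -0.49 ± 0.1 for Camk2d (limma adjusted p = 0.0641), on 2 Hdac4HET mice. It was 0.19 ± 0.07 for Camkk2 in place of 0.06 (limma adjusted p = 0.493), 0.12 for Camk2g in place of 0.03, and 0.35 for Camk4 in place of 0.23, and none was counted. The part of bulb tissue in these levels was not tested.

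The transgene was then compared on the Hdac4HET background, with Dble::R6/2 against Hdac4HET mice. Camkk2, Camk2a and Camk1g fell here too, and Camk4 was counted as lower on its brightest set. By the same rule 14 of 28 member sets were lower and none was higher, where 5.07% of all probe sets were lower. At any size 18 were lower, against 15.6% of all probe sets. The median change was -0.4 over the member sets and 0.02 over all. On 13 of 28 sets every Dble::R6/2 array lay below every Hdac4HET array, which held for 3.55% of all probe sets. By brightest set 4 of 9 members were lower, against 4.08% of all genes. In this comparison 8 of 10 bulb markers and 3 of 3 striatal markers were also lower, with striatal means of 8.53 to 9.17 in Hdac4HET and 7.69 to 8.3 in Dble::R6/2 cortex. Of 6 interneuron markers 3 were lower, Gad1, Sst and Vip, with means of 11.05 to 11.21 and 10.48 to 10.65 that did not overlap. At any size 6 were lower. Of 5 general neuron markers 1, Stmn2, was counted as higher, and 4 were lower at any size. The oligodendrocyte marker Mobp was lower by the same rule, and 0 of 5 astrocyte markers were counted, with 4 lower at any size. The part of these cell types and tissues in the member changes was not tested.

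Camkk2 levels were 11.48 to 11.77 in Hdac4HET cortex (median 11.61) and 10.5 to 10.77 in Dble::R6/2 cortex (median 10.56). The gap between the groups was wider than the range of either, and Camkk2 fell by 0.99 on the log2 scale (SE 0.04, 9 against 10 mice, limma adjusted p = 2.19e-19). Camk2a levels were 13.17 to 13.33 (median 13.27) and 12.75 to 12.86 (median 12.83), and Camk2a fell by 0.46 (SE 0.02, limma adjusted p = 5.71e-18). Neither gene had an array within the range of the other group.

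Camk1g levels were 8.65 to 9.51 in Hdac4HET cortex (median 9.1) and 8.16 to 8.51 in Dble::R6/2 cortex (median 8.32). Camk1g fell by 0.75 (SE 0.08, limma adjusted p = 8.62e-10), again without overlap. Camkv levels were 11.24 to 11.47 (median 11.35) and 10.93 to 11.14 (median 11.04), without overlap and with a difference of -0.33 ± 0.04 (SE, limma adjusted p = 1.99e-09) that was smaller than 1.3-fold. Camk2b levels were 11.11 to 11.36 (median 11.24) and 10.9 to 10.99 (median 10.94), and its difference of -0.3 ± 0.03 (SE, limma adjusted p = 2.11e-09) was below the fold threshold as in the first comparison.

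Camk4 was counted as lower on 4 of its 5 sets. The brightest ran from 10.86 to 11.39 in Hdac4HET cortex (median 11.09) and from 10.33 to 10.93 in Dble::R6/2 cortex (median 10.55). Of 10 Dble::R6/2 arrays, 7 lay below every Hdac4HET array, and the log2 change was -0.51 ± 0.12 (SE, limma adjusted p = 0.000633). Set 2 changed by -1.05 ± 0.23 (SE, limma adjusted p = 0.000385), set 3 by -0.77 and set 5 by -0.53. Without the arrays with raised bulb markers set 2 gave -0.99 ± 0.42 (limma adjusted p = 0.114) and was no longer counted, and the brightest gave -0.63 ± 0.21 (limma adjusted p = 0.0367).

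Nrgn lay between 12.98 and 13.33 in Hdac4HET cortex (median 13.03) and between 12.72 and 13.08 in Dble::R6/2 cortex (median 12.78). Of 10 Dble::R6/2 arrays, 8 were below every Hdac4HET array. The difference was -0.23 ± 0.05 (SE, limma adjusted p = 0.000887), short of 1.3-fold. Without the arrays with raised bulb markers it was -0.42 ± 0.09 (limma adjusted p = 0.00138) and was counted as lower, on 2 Hdac4HET and 9 Dble::R6/2 mice. The same alternative, chosen after the values were seen, added Camk2d as higher on its brightest set, at 0.49 ± 0.1 (limma adjusted p = 0.000448) in place of 0.16 ± 0.08 (limma adjusted p = 0.0869), and on set 3 (0.45). It gave 16 member sets counted in all. On its brightest set Camk2g differed by -0.02 with an interval of -0.1 to 0.05, and by -0.11 without those arrays (limma adjusted p = 0.294). Its second set was lower at any size, by -0.09 with an interval of -0.17 to -0.02 (limma adjusted p = 0.0498), short of 1.3-fold.

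The last comparisons asked whether Hdac4 reduction moved the members in mice with the transgene, and whether the effect of the transgene depended on Hdac4. No member set was counted as changed between Dble::R6/2 and R6/2 cortex by limma, where 0.269% of all probe sets were called. At an unadjusted p under 0.05 there were 4 of 28 member sets, beside 7636 of all 45037 probe sets, and the methods' t-test with the same adjustment gave 0. Nrgn had the lowest adjusted p. Its medians were 12.67 in R6/2 and 12.78 in Dble::R6/2 cortex, the ranges shared the stretch from 12.72 to 12.94, and the difference was 0.18 ± 0.05 on the log2 scale (SE, 95% interval 0.07 to 0.29, limma adjusted p = 0.0653). For Camkk2 it was 0.12 with an interval of 0.03 to 0.21 (limma adjusted p = 0.142), and for Camk2a -0.03 with an interval of -0.08 to 0.02. A 1.3-fold difference lies outside these 3 intervals. It lies inside that of Camk4 set 2, whose difference of -0.53 had the largest size among the member sets, with an interval of -1 to -0.05 (limma adjusted p = 0.235).

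The interaction of transgene and Hdac4 allele was likewise not called on any member set by limma, where 0.251% of all probe sets were called. An unadjusted p under 0.05 was found for 4 of 28 member sets, beside 8543 of all 45037 probe sets. The lowest adjusted p of the interaction among the member sets was that of Nrgn, at 0.24 ± 0.08 on the log2 scale (SE, limma adjusted p = 0.0918). Without the arrays with raised bulb markers the Nrgn interaction was 0.05 ± 0.11 (limma adjusted p = 0.924). The interaction was -0.35 ± 0.17 on the brightest Camk4 set (limma adjusted p = 0.247) and -0.87 ± 0.34 on set 2 (limma adjusted p = 0.153), so that the larger Camk4 values on the Hdac4HET background were not shown to differ from those on the WT background. For Camkk2 and Camk2a it was 0.06 and -0.01, with intervals of -0.07 to 0.18 and -0.07 to 0.06.

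Read over all 37 mice, 11 of 28 member sets had each of the 19 arrays with the transgene below each of the 18 without it, which held for 1.44% of all probe sets. These were 5 sets of Camk2a, 3 of Camkk2 and the single sets of Camk2b, Camk1g and Camkv. The highest Camkk2 level with the transgene was 10.77, and the lowest without it was 11.41. For Nrgn, 17 of 19 arrays with the transgene lay below every array without it, and for the brightest Camk4 set 3 of 19 did.

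Within genotypes the members did not vary as 1 group. The deviation of each array from its genotype mean was correlated between the brightest sets of all 36 pairs of members over 37 arrays, which share a tissue block and a hybridisation per mouse. The median r was 0.02, and the values ran from -0.64 to 0.67 with 3 pairs above 0.5. Camk2a and Camkk2 had the highest r (0.67), followed by Camkk2 and Nrgn (0.61) and by Camk2g and Camk4 (0.53). Camk2g and Camkv varied in opposite directions (-0.64), as did Camk4 and Camkv (-0.6). These correlations include the 8 arrays with raised bulb markers and were not recomputed without them. Among the Hdac4HET arrays, Camkk2, Nrgn and Camk2g were lower and Camk2d was higher on the arrays with raised markers, as given above.

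The genes most like 3 of the members were named by the same deviations among 11441 genes on probe sets brighter than the median. The arrays with raised bulb markers were included here too. Those most like Camk2a were Sdk2, a synaptic adhesion molecule (r = 0.73), Mrtfb (0.72), Ppm1h (0.72), Fzd3 (0.71) and Bsn, which encodes the presynaptic scaffold bassoon (0.71). Those most like Camk4 were Hivep1 (0.75), Dgkh (0.74), Ythdc2 (0.73), Rorb, a transcription factor of layer 4 neurons (0.72), and Ppp1r12a (0.72). Those most like Nrgn were the neuronal chemokine Cx3cl1 (0.75), Zfp703 (0.74), Csnk1g2 (0.72), Ptgfrn (0.69) and Akt2 (0.69). Of these 15 genes, Sdk2 (log2 change -0.47) and Cx3cl1 (-0.43) fell and Ythdc2 (0.51) rose in R6/2 against WT cortex.

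Other genes of calmodulin signalling were read from a list, of which 32 were measured. In R6/2 against WT cortex 4 of the 32 were lower, against 3.3% of all genes, and 1 was higher, against 3.75%. The median log2 change was -0.13 over the list and 0 over all genes. Those that were lower were Itpka, Nos1, Pcp4l1 and Adcy1, and the one that was higher was Prkaa1. In Dble::R6/2 against Hdac4HET cortex 5 were lower, against 4.08% of all genes, and 2 were higher, against 2.6%. Without the arrays with raised bulb markers 6 were lower and 1 was higher.

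Itpka, an inositol trisphosphate kinase of dendritic spines that calmodulin activates, had levels of 10.75 to 11 in WT and 9.63 to 10.1 in R6/2 cortex. It fell by 1.01 on the log2 scale (SE 0.05, limma adjusted p = 2.11e-18), without overlap, and by 0.82 in Dble::R6/2 against Hdac4HET cortex. Nos1, neuronal nitric oxide synthase, fell by 0.51 (SE 0.08) on its brightest set, with levels of 8.15 to 8.73 in WT and 7.77 to 8.31 in R6/2 cortex. On the Hdac4HET background this set differed by -0.27, which was not counted, or by -0.1 ± 0.14 without the arrays with raised bulb markers. Set 2 of Nos1 was counted as lower in both comparisons, at -0.53 and -0.45 (SE 0.08, limma adjusted p = 1.13e-06 and 1.18e-05). Adcy1, an adenylyl cyclase that calmodulin stimulates, fell by 0.39 (SE 0.06) and on the Hdac4HET background by 0.4. Nos1 is typical of a class of interneurons. Of 6 interneuron markers, 2 fell in R6/2 against WT cortex and 3 in Dble::R6/2 against Hdac4HET cortex, as given above. The part of interneurons in the Nos1 values was not tested.

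Among the small proteins that, like neurogranin, carry an IQ motif, Pcp4l1 fell by 0.43 (SE 0.11) in R6/2 against WT cortex. On the Hdac4HET background it fell by 1.02, and fell by 0.52 without the arrays with raised bulb markers. Pcp4 differed by -0.37 in R6/2 against WT cortex, short of the threshold, and fell by 0.48 in Dble::R6/2 against Hdac4HET cortex. Gap43, the axonal relative of neurogranin, differed by 0.16 in both comparisons, and by 0.34 ± 0.08 on the Hdac4HET background without those arrays (SE, limma adjusted p = 0.00385), short of 1.3-fold. Pcp4l1 (0.61) and Pde1c (0.39), a calmodulin-dependent phosphodiesterase, were the list's higher genes in Hdac4HET against WT cortex, and without the arrays with raised bulb markers their differences were 0.09 and 0.07 and were not counted.

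Prkaa1, the alpha 1 catalytic subunit of AMPK and thus of a kinase that CaMKK2 phosphorylates, had levels of 6.76 to 7.21 in WT and 7.42 to 7.95 in R6/2 cortex. It rose by 0.65 ± 0.07 on the log2 scale (SE, limma adjusted p = 2.8e-09), without overlap, and by 0.47 on the Hdac4HET background. Camk2n2, an inhibitor of CaMKII, differed by 0.34 in R6/2 against WT cortex, short of 1.3-fold, and rose by 0.42 in Dble::R6/2 against Hdac4HET cortex (0.35, not counted, without the arrays with raised bulb markers). Pde1b, a further calmodulin-dependent phosphodiesterase, fell by 0.55 in that comparison. None of the 8 genes of calcineurin and its regulators, the phosphatase arm of calmodulin signalling, was counted in either comparison, with 3 higher and 4 lower at any size in R6/2 against WT cortex. Without the arrays with raised bulb markers 1 of 8 was counted as lower in Dble::R6/2 against Hdac4HET cortex, namely Rcan2 (-0.38).

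**Figure D4:**
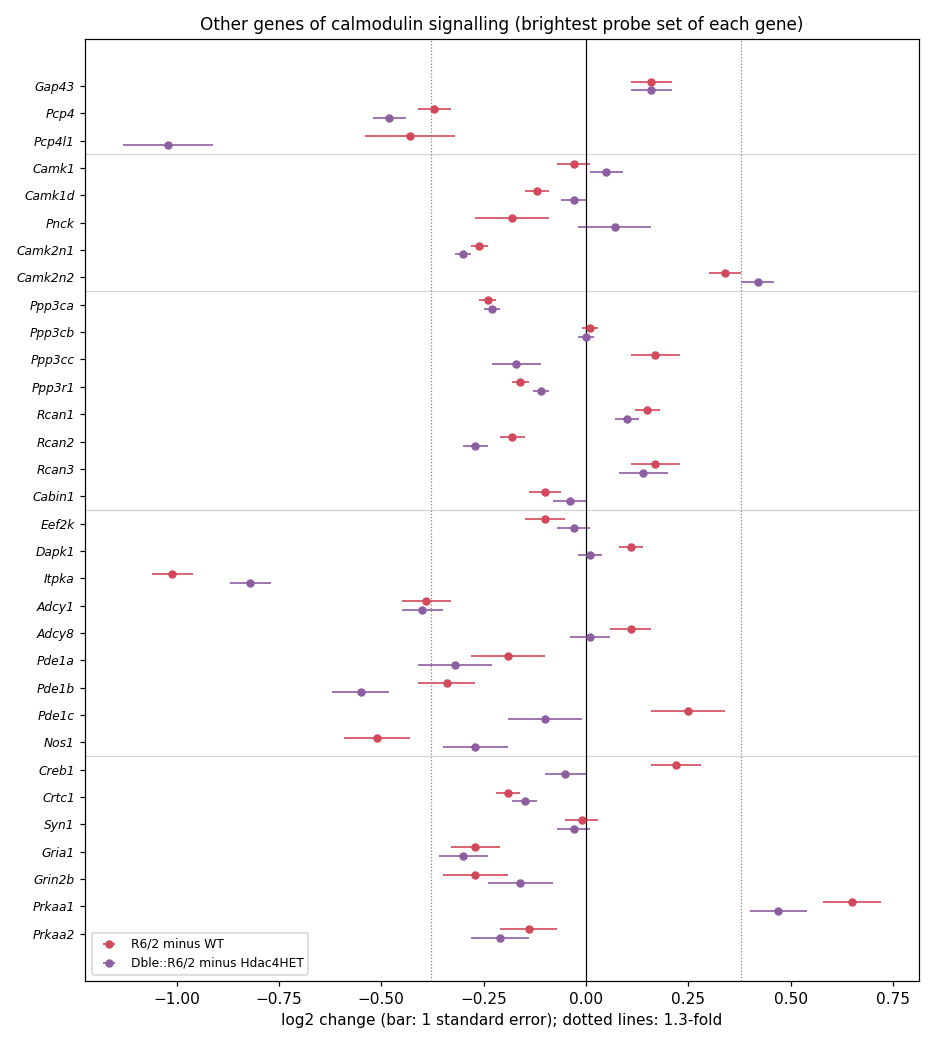
Log2 change with the R6/2 transgene (x axis) for the 32 measured genes of the calmodulin list (y axis, brightest set of each, grey lines between sublists), as R6/2 minus WT and as Dble::R6/2 minus Hdac4HET. Points are limma estimates, bars are ± 1 SE and dotted lines mark 1.3-fold. Itpka lies furthest left for R6/2 minus WT at -1.01, Prkaa1 furthest right at 0.65, and the 8 calcineurin genes lie between the dotted lines.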

How the data were processed

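Cortex RNA of 37 mice was measured on 37 Affymetrix arrays, and genotypes and replicate numbers came from the sample labels. The authors deposited log2 expression values in 1 table, used here without further normalization. The study's methods describe RACE quality control and exclusion of chips with a high NUSE, and the route from scanned chips to log2 values was not given in the sources used here. Of 45037 probe sets, 34945 had 1 symbol, 932 several and 9160 none, and none with several was named. The number of arrays limits precision.

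A model of 4 genotypes was fitted to all probe sets with limma 3.58.1 in R 4.3.3 (lmFit, eBayes with a trend), with Benjamini-Hochberg adjustment over all of them. Changed meant an adjusted p under 0.05 and a change above 1.3-fold. All 10 members were named on all their sets. Listed genes were named on their brightest set where called, and the 5 genes most correlated with Camk2a, Camk4 and Nrgn were taken. Rcan2, Gap43, Camk2n1 and Cabin1 were named after their values were seen. Probe sets of a gene were compared with SciPy 1.17.1. The transgene calls were tested on simulated arrays with independent noise and few changed probe sets. The real arrays have many changed sets and some raised bulb markers, so this does not check the member calls. Members, lists and tests were chosen with earlier results of these data known.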

Additional observations from a re-analysis of the deposited data

Results flagged for a closer look

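Hdac4HET replicate 7 had a Camk2a level of 13.17 on the log2 scale, the lowest of its group of 9. The next array was at 13.26 and the highest at 13.33, so that the gap to the nearest array was 0.53 of the whole range of the group. The same check was run on 36 groups, 9 members in 4 genotypes, and marked this 1. Chance marks about 1 in 20 groups.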

How the results depend on the processing

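Alternatives were the methods' t-test, quantile normalization, array quality weights, a fit on the compared genotypes alone, the brighter probe sets alone (mean above the median), leaving out _x_at and _s_at sets, dropping the fold threshold, sex as covariate, the replicate block, each array left out, and, chosen after seeing the data, leaving out the arrays with raised bulb markers or those whose sex-linked genes went against the label. Member sets counted ran from 13 to 18 for R6/2 against WT and from 12 to 18 for Dble::R6/2 against Hdac4HET, and were 0 in the other comparisons. The lowest counts, 13 and 12, came from the brighter probe sets alone, which left 22 member sets to test. The highest came from dropping the fold threshold, and the 18 for R6/2 against WT included 1 set that was higher. Leaving out each array gave 14 to 15 and 14. The 9 counted changes of brightest sets kept direction and call in all 99 values under the alternatives other than single arrays. Not all of these could have changed a call. Dropping the fold threshold can only keep it, and leaving out other probe sets leaves the estimate as it was. No WT or R6/2 array was among those with raised bulb markers. Replicate numbers were not taken to pair the mice. Deviations of same-numbered pairs had a median correlation of 0.01, beside 0 for other pairs, and 14 of 54 were above 0.1. The replicate block gave 15, 14 and 0 sets. Some differences that were not counted changed sign. With quantile normalization Camkv in Hdac4HET against WT and the Camk2g interaction were 0, as was the latter with array weights. Without the arrays with raised bulb markers, Hdac4HET against WT gave 0.03 for Camk2a, -0.07 for Camkv and 0.15 for Nrgn, and the interaction 0.01 for Camk2b, -0.08 for Camk2g and -0.07 for Camkk2. Without those whose sex-linked genes went against the label, Camkv in Hdac4HET against WT was -0.02, and the interaction -0.01 for Camk2g and 0.01 for Camk1g. The cause was not tested.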

Other observations

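Less bright probe sets of the calmodulin list also moved. The dimmer of the 2 sets of Camk2n1, which encodes an inhibitor of CaMKII, fell by 1.9 on the log2 scale in R6/2 against WT cortex (SE 0.45, limma adjusted p = 0.000785) and fell by 1.79 in Dble::R6/2 against Hdac4HET cortex (SE 0.44), whereas its brighter set differed by -0.26 and -0.3. Both dimmer sets of Cabin1, which encodes an inhibitor of calcineurin, fell in Dble::R6/2 against Hdac4HET cortex, by 0.43 and 0.46, beside -0.04 on the brightest. In R6/2 against WT cortex they differed by -0.17 and -0.38, and neither was counted. The dimmer sets of Camk2n1 and Cabin1 were not recomputed without the arrays with raised bulb markers. These sets were chosen after their values were seen.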
